A study of Rattus norvegicus with 9 samples.

Results

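The genes described here are 9 antioxidant enzymes and, as an oxidant source beside them, the NADPH oxidase Nox4. They were taken by identifier from a list drawn up for their shared role, with earlier results of these data known, and no threshold on their values was applied. All 10 were among the 17862 features listed in every kidney library. The files hold Ensembl identifiers without gene names, so the names used are those given with that list. All 10 averaged at least 1 FPKM (reads per kilobase of feature, scaled to a library total) over the 9 libraries, the condition for being tested, together with 12187 features in all.

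RNA depleted of ribosomal RNA was sequenced from kidney tissue in 3 groups of 3 samples, all at 6 weeks of age. The QDG group was hypertensive and received Qingda granule, a Chinese herbal preparation. The Model group was hypertensive without the granule, and the WT group was labelled normal. No label or file states the strain, how hypertension arose or the dose. Nor does any state that each sample is its own animal, so a p-value here reflects the spread among the samples at hand, possibly technical in origin. The organism is labelled Rattus norvegicus, yet 17553 of the 17862 features carry mouse identifiers, and the files do not settle which species' genome was used. Defining markers of kidney segments, blood cells and leukocytes were not analysed here, as they are known by name only.

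Oxygen metabolism leaks superoxide, and superoxide dismutases turn it into hydrogen peroxide. Catalase and the glutathione peroxidases then remove the peroxide, the peroxidases by oxidizing glutathione. Gpx1, Gpx3 and Gpx4 carry selenocysteine at the active site, and the kidney proximal tubule is the main source of the Gpx3 found in plasma. Nqo1 and Hmox1 are widely used readouts of the transcription factor NRF2, which binds antioxidant response elements, and Nox4 is the NADPH oxidase most abundant in kidney.

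Promoters were searched because NRF2 acts through short DNA motifs, and the windows of Gpx1, Gpx3 and Sod2 are shown as examples. Promoter windows of rat genes from RefSeq (build GRCr8) were matched by symbol for 8 of the 10 genes, with no window for Hmox1 or Sod3. The 250 bases before the annotated start were searched on both strands for the core of the antioxidant response element, TGACNNNGC, where N is any base, and for the GC box, GGGCGG, a site for SP-family factors. These 8 genes have 10 windows, 3 of them for Gpx4. The response element core stood in 1 of the 10 windows, that of Sod2, and in 10.1% of all 33469 rat promoter windows. The GC box stood in 8 of the 10 windows, all but that of Cat and 1 of Gpx4, and in 30.5% of all windows. A match is a description of letters and not a bound site. Promoter sequence beyond these 250 bases and enhancers further away were not searched, so a gene without a match may carry one there. The Gpx1 window lies at chr8:117905212-117905461 (plus strand), the Gpx3 window at chr10:39529085-39529334 (plus strand) and the Sod2 window at chr1:50050169-50050418 (minus strand). Each is written 5′ to 3′, and capitals mark the GC box in Gpx1 and Gpx3 and the response element core, read on the opposite strand, in Sod2.
Gpx1: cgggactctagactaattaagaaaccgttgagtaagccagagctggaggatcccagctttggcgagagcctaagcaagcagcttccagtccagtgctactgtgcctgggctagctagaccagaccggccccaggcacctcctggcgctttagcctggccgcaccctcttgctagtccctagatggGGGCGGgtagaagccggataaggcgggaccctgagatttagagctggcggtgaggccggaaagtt
Gpx3: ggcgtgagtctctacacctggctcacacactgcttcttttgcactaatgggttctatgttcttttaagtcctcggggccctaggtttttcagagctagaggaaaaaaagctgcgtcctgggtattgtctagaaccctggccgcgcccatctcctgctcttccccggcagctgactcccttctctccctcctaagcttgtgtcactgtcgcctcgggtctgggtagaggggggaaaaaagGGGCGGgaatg
Sod2: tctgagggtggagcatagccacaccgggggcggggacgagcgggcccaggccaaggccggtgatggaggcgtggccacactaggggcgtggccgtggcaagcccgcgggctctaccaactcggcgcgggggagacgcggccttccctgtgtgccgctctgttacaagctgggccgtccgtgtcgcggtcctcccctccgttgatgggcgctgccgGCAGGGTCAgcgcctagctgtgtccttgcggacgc
The GC box began 65 bases before the start in Gpx1 and 11 bases before it in Gpx3, and the response element match in Sod2 began 35 bases before the start.

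The libraries were similar in depth. The listed features held 26746754 to 29421912 recovered reads per library, and the scaling totals implied by the values were 0.938 to 1.11 times those reads. These totals lay within 0.571% of median-ratio scaling in every library, so they already adjust for differences in composition and are not plain library totals. The members held 731 reads (Hmox1 in QDG 3) to 969279 reads (Gpx3 in Model 3). Counting error at the lowest of these is 3.70% of the value, below the spread between replicates for that gene in every group.

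Levels per length spanned a wide range, and Gpx3 stood far above the other enzymes. Gpx3 averaged 16995 FPKM over the 9 libraries, ranked between the third and the fifth of all features in each, and made up 3.59% to 4.37% of the summed FPKM. Gpx1 followed at a mean of 1854 FPKM, 9.16-fold below Gpx3, and ranked 12 to 25. Gpx4 (585 FPKM) and Cat (563 FPKM) came next with overlapping ranges. Sod1 (167 FPKM), Sod3 (146 FPKM) and Nqo1 (133 FPKM) formed a further group whose ranges overlapped. Sod2 (39.2 FPKM), Nox4 (36.4 FPKM) and Hmox1 (22.7 FPKM) were lowest, and the ranges of neighbours overlapped there too. Levels are compared on the FPKM scale, which depends on the feature lengths recovered from the files, 1441 bases for Gpx1 to 10008 bases for Sod2.

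**Figure D1:**
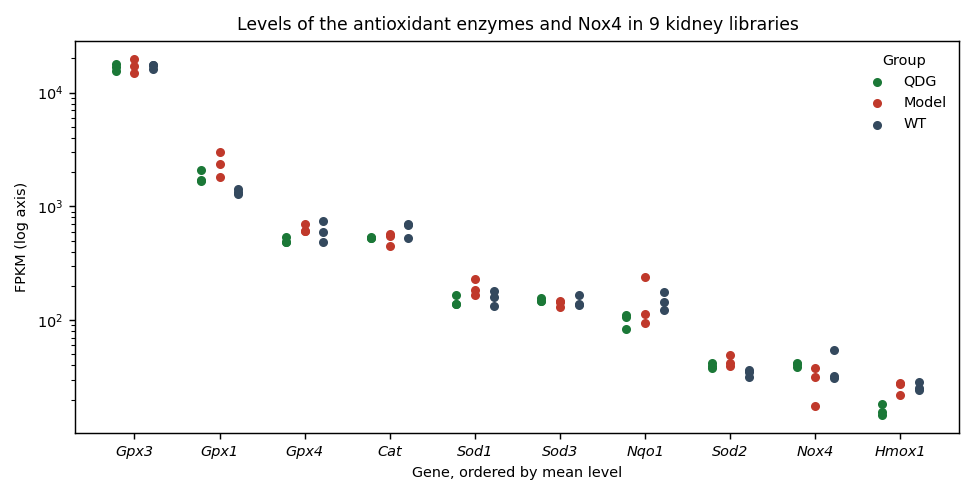
FPKM on a log axis for each gene, ordered by mean level, with 1 point per library coloured by group (QDG, Model, WT). Gpx3 lies at 14936 to 19925 FPKM in all 9 libraries and Hmox1 at 14.7 to 28.6 FPKM, while differences between groups are small beside those between genes.

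Setting Model against WT asks how the hypertensive kidney differed from the normal one. Among the 10 genes, 1 was higher in Model (Gpx1) and 0 were lower (limma, adjusted p under 0.05), where 7.9% of all tested features were called, 6.01% higher and 1.9% lower. In bulk tissue, a change in the number of cells of a type cannot be told apart from a change in RNA per cell. The log2 changes ran from −0.44 (Nox4) to 0.80 (Gpx1). Their median was −0.0021, against 0.020 over all tested features, and 5 of the 10 had a higher mean in Model, as did 53% of all tested features. All 3 values of Model lay above all 3 of WT for 2 of the 10 genes, Gpx1 and Sod2, and below them for 0, where 28.2% of all tested features had groups that did not overlap, 17.3% with Model higher. These counts over 10 genes are near the background.

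Of the glutathione peroxidases, only Gpx1 was called in Model against WT. Gpx1 (ENSMUSG00000063856), the cytosolic and mitochondrial peroxidase, stood at 2339.6, 1802 and 3025 FPKM in Model, against 1284, 1345 and 1412 FPKM in WT. Every Model library exceeded every WT library, and the Model libraries were spread more widely. The mean was 2389 ± 613 FPKM in Model and 1347 ± 64.0 FPKM in WT (SD, n = 3 each), with a fitted log2 change of 0.80 (SE 0.20, limma, adjusted p = 0.0422), or 1.74-fold on the log2(FPKM + 1) scale. The adjusted p was 0.0200 to 0.116 over 18 alternatives, and 6 of them kept it under 0.05. Without 1 library the call was lost on leaving out WT 1 (adjusted p = 0.0931), WT 2 (0.102), Model 1 (0.107), Model 3 (0.116), QDG 1 (0.0561), QDG 2 (0.0740) or QDG 3 (0.0677). The log2 change itself stayed between 0.59 and 0.98.

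Feature length moved with this comparison. Short features tended to be higher in Model, and Gpx1 is shorter than most, with 14.9% of tested features shorter still. The trend with length over all features amounted to a log2 change of 0.21 at the length of Gpx1 and −0.11 at that of Sod2, and after its removal the Gpx1 change was 0.59 (SE 0.16, limma, adjusted p = 0.0613). The part of length in the result beyond this value was not tested.

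Gpx3 (ENSMUSG00000018339), the secreted plasma peroxidase, stood at 17191, 14936 and 19925 FPKM in Model and at 17352, 17389 and 16199 FPKM in WT. The Model libraries lay on both sides of the WT range. The log2 difference was 0.02 with a 95% interval of −0.43 to 0.48 (limma, adjusted p = 0.956), which turned to −0.15 after removal of the length trend. Gpx4 (ENSMUSG00000075706), which reduces lipid peroxides in membranes and restrains ferroptosis, stood at 605, 612 and 702 FPKM in Model and at 749.7, 595 and 488 FPKM in WT. The groups overlapped, and their log2 difference of 0.09 (limma, adjusted p = 0.773) turned to −0.14 under quantile normalization.

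Because a share within a library does not depend on the library's scaling, the 3 peroxidases were also set against each other. Gpx1 made up 9.61% ± 0.572 of their summed FPKM in QDG, 11.6% ± 1.20 in Model and 7.13% ± 0.607 in WT (SD, n = 3 each). By library the share was 10.2%, 9.56% and 9.07% in QDG, 11.6%, 10.4% and 12.8% in Model, and 6.62%, 6.96% and 7.80% in WT. No library of one group entered the range of another, with Model highest and WT lowest. Gpx3 filled most of the rest, at 87.7% ± 0.588 in QDG, 85.2% ± 0.929 in Model and 89.7% ± 0.264 in WT. An exact two-sided permutation test gave p = 0.1 for each pair of groups, the smallest that 3 against 3 samples allow. The adjusted p was 0.15 over the 12 tests of 4 such ratios, none of which could have fallen under 0.05. The Gpx1 and Gpx3 shares largely mirror each other and are not separate results. How often shares of other genes separate the groups was not tested.

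None of the superoxide dismutases passed the test in Model against WT. Sod2 (ENSMUSG00000006818), the manganese enzyme of mitochondria, stood at 42.3, 39.2 and 49.2 FPKM in Model, against 36.1, 34.9 and 31.7 FPKM in WT. All Model libraries lay above all WT libraries, yet the log2 difference of 0.34 with an SE of 0.11 did not pass (limma, adjusted p = 0.0946). Sod2 is one of the longer features, and removing the length trend took its difference to 0.45 (limma, adjusted p = 0.0636), while quantile normalization took it to 0.15 (limma, adjusted p = 0.298). Sod1 (ENSMUSG00000022982), the copper-zinc enzyme of the cytosol, stood at 185, 166 and 229 FPKM in Model and at 181, 133 and 161 FPKM in WT. The groups overlapped (log2 difference 0.28, limma, adjusted p = 0.284), and the difference was 0.046 under quantile normalization. Sod3 (ENSMUSG00000072941), the extracellular enzyme, averaged 141 ± 9.53 FPKM in Model and 146 ± 16.4 FPKM in WT (SD, n = 3 each; limma, adjusted p = 0.814). Sod1 made up 43.9% ± 2.70 of the summed FPKM of the 3 dismutases in QDG, 51.0% ± 2.40 in Model and 46.6% ± 2.62 in WT (SD, n = 3 each). Every Model library had a higher share than every QDG and every WT library, with an exact two-sided permutation p of 0.1 for each (adjusted p = 0.15), while QDG and WT overlapped (exact p = 0.2, adjusted p = 0.267).

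Cat, Nqo1, Hmox1 and Nox4 did not pass either. Cat (ENSMUSG00000027187), the peroxisomal catalase, stood at 553, 566 and 450.0 FPKM in Model, against 702, 682 and 522 FPKM in WT. Its log2 difference was −0.27 with a 95% interval of −0.62 to 0.07 (limma, adjusted p = 0.281), and it was −0.52 under quantile normalization (limma, adjusted p = 0.0879). WT 3 alone lay within the Model range in FPKM. As a share of each library's summed FPKM, Cat made up 0.1451%, 0.1635% and 0.1409% in WT. In Model the share was 0.1265%, 0.1406% and 0.0919%, so WT 3 lay just above Model 2 on that scale.

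In Nqo1 and Nox4 a single Model library stood apart. Nqo1 (ENSMUSG00000003849), a quinone reductase, read 113, 240.2 and 94.9 FPKM in Model, against 178, 143 and 123 FPKM in WT. Model 2 held the highest value of all 9 libraries, while the other Model libraries lay below every WT library. The log2 difference was −0.09 (SE 0.30, limma, adjusted p = 0.867), and −0.50 without Model 2 (limma, adjusted p = 0.126). Nox4 (ENSMUSG00000030562), which releases mainly hydrogen peroxide, read 31.9, 17.7 and 38.1 FPKM in Model, against 30.9, 54.6 and 32.5 FPKM in WT. Here Model 2 was the lowest of the 9 libraries and WT 2 the highest. The log2 difference was −0.44 (SE 0.27, limma, adjusted p = 0.322), −0.12 without Model 2 (limma, adjusted p = 0.744) and −0.18 without WT 2 (limma, adjusted p = 0.705). The ratio of Nqo1 to Nox4 was 13.5 in Model 2, against 1.99 to 5.77 in the other 8 libraries.

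**Figure D2:**
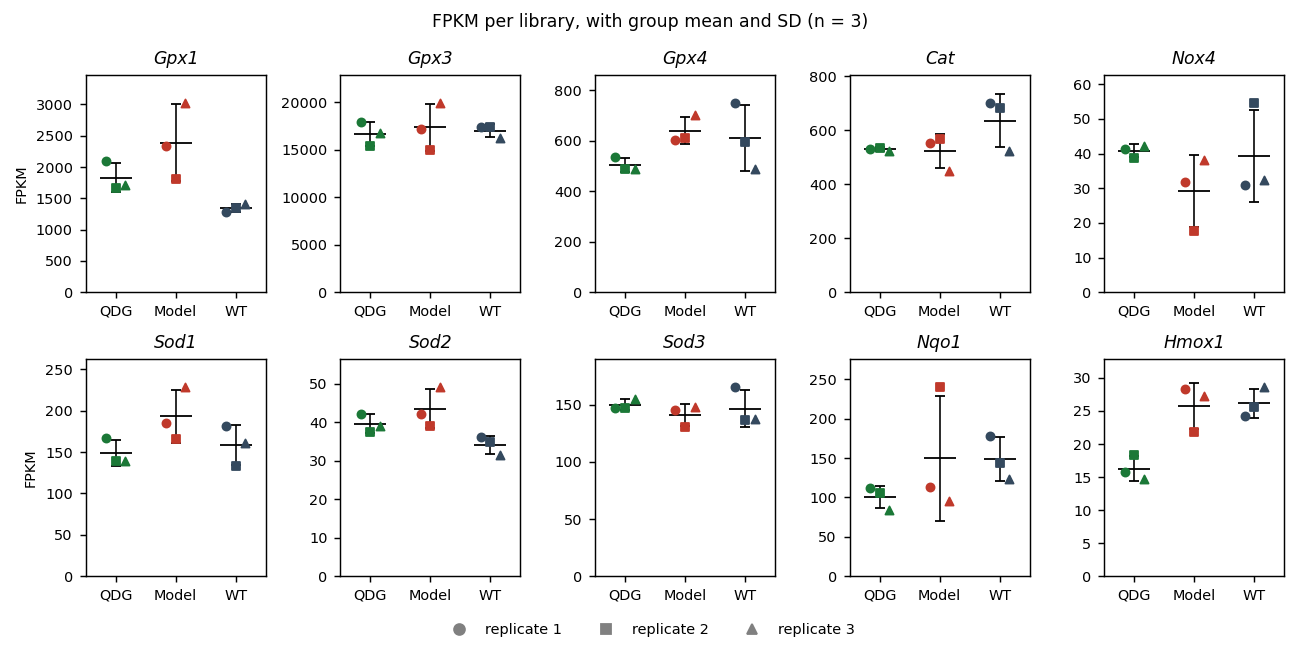
FPKM of each gene by library on linear axes that start at 0, with groups QDG, Model and WT from left to right, a symbol per replicate number, and black lines for the group mean and SD (n = 3). The WT values of Gpx1 (1284 to 1412 FPKM) lie below all values of both hypertensive groups, the QDG values of Hmox1 (14.7 to 18.4 FPKM) lie below all others, and Model 2 stands apart in Nqo1 and Nox4.

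Setting QDG against Model asks how kidneys under the granule differed from untreated hypertensive ones. None of the 10 genes passed (limma, lowest adjusted p = 0.265), as 0% of all tested features did, and voom on recovered reads also called 0. At an unadjusted p under 0.05, 2 of the 10 were lower in QDG (Hmox1 and Sod1) and 0 were higher, where 13.9% of all tested features reached that p, 9.64% lower and 4.27% higher. The median log2 difference of the 10 was −0.24, against −0.02 over all tested features, and 3 of the 10 had a higher mean in QDG, against 46.5% of all tested features. All 3 values of QDG lay below all 3 of Model for Hmox1 and Gpx4 and above them for Nox4, so that 3 of 10 genes had groups that did not overlap, near the 26.7% of all tested features.

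Hmox1 (ENSMUSG00000005413), the inducible heme oxygenase that degrades heme to biliverdin, iron and carbon monoxide, differed most. It stood at 15.7, 18.4 and 14.7 FPKM in QDG, against 28.3, 21.8 and 27.2 FPKM in Model. Every QDG library was below every Model library. The mean was 16.3 ± 1.90 FPKM in QDG and 25.8 ± 3.49 FPKM in Model (SD, n = 3 each), log2 difference −0.63, SE 0.13 (limma, unadjusted p = 0.000663, adjusted p = 0.265). Its p ranked 28 of 12187 features. After removal of the length trend the difference was −0.46 (limma, adjusted p = 0.340), and it ran from −0.74 to −0.46 over 18 alternatives.

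Gpx4, Gpx1 and Sod1 had lower means in QDG than in Model, by values that did not pass. Gpx4 read 535, 488 and 487 FPKM in QDG, against 605, 612 and 702 FPKM in Model, a log2 difference of −0.34 (limma, adjusted p = 0.390). It was −0.18 once the length trend was removed and −0.16 under quantile normalization. The groups did not overlap, although WT 3 at 488 FPKM stood as low as QDG. As a share of summed FPKM, WT 3 (0.132%) stood above all QDG libraries (0.128%, 0.123% and 0.115%). Gpx1 read 2094.9, 1672 and 1716 FPKM in QDG, which overlapped Model. Its log2 difference was −0.36 with a 95% interval of −0.81 to 0.09 (limma, adjusted p = 0.443), and −0.17 once the length trend was removed. Sod1 read 167, 139.6 and 139 FPKM in QDG, with only QDG 1 inside the Model range. Its log2 difference was −0.37 (limma, adjusted p = 0.356), and −0.12 under quantile normalization.

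Nox4 read 41.4, 38.7 and 42.3 FPKM in QDG, above all 3 Model libraries. Its log2 difference was 0.53 (limma, adjusted p = 0.407), and 0.22 without Model 2 (limma, adjusted p = 0.679). Nqo1 read 111, 106 and 84.3 FPKM in QDG, and its log2 difference of −0.45 from Model (limma, adjusted p = 0.512) shrank to −0.05 without Model 2. For Gpx3, Sod2, Sod3 and Cat the log2 differences lay between −0.13 (Sod2) and 0.09 (Sod3). Cat was very even in QDG, at 532, 536 and 523 FPKM.

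**Figure D3:**
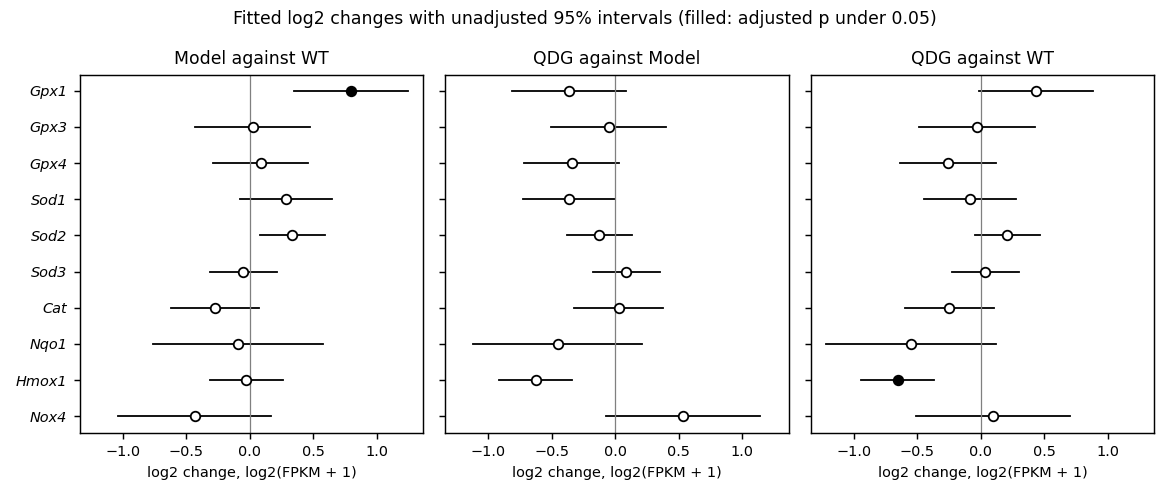
Fitted log2 changes of each gene on the log2(FPKM + 1) scale for the 3 comparisons, with 95% intervals not adjusted for the number of features. Filled points passed the adjusted threshold, namely Gpx1 in Model against WT (0.80) and Hmox1 in QDG against WT (−0.65).

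Kidneys under the granule were also set against normal ones. Among the 10 genes, 1 was lower in QDG (Hmox1) and 0 were higher (limma, adjusted p under 0.05), where 2.47% of all tested features were called, 0.837% lower and 1.63% higher. At an unadjusted p under 0.05, Hmox1 was again the 1 gene of 10, lower in QDG, where 21.3% of all tested features reached that p and 9.51% did so lower in QDG. The median log2 change of the 10 was −0.06, against −0.0012 over all tested features, and 4 of the 10 had a higher mean in QDG, against 49.9% of all tested features. Groups did not overlap for 4 of the 10, higher in QDG for Gpx1 and Sod2 and lower for Hmox1 and Nqo1, where 27.7% of all tested features had such groups, 15.2% with QDG higher and 12.5% with QDG lower. This comparison shares its libraries with the other comparisons, and the values are set side by side only.

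Hmox1 fell to 15.7, 18.4 and 14.7 FPKM in QDG, against 24.3, 25.6 and 28.6 FPKM in WT. No QDG library reached the lowest WT library. The mean was 16.3 ± 1.90 FPKM in QDG and 26.2 ± 2.24 FPKM in WT (SD, n = 3 each), with a fitted log2 change of −0.65 (SE 0.13, limma, adjusted p = 0.0327), or 0.635-fold on the log2(FPKM + 1) scale. The trend with length was small in this comparison, 0.015 at the length of Hmox1 and 0.018 at that of Gpx1. Without the trend the Hmox1 change was −0.67 (limma, adjusted p = 0.0302). The call held under 12 of 18 alternatives. It was lost without WT 1 (limma, adjusted p = 0.0771), WT 2 (0.0596), QDG 1 (0.133), QDG 2 (0.0745) or QDG 3 (0.120). It was also lost with the replicate number as a block in the fit (limma, adjusted p = 0.0767). The log2 change stayed between −0.74 and −0.59 throughout. For this gene Model was close to WT, at 25.8 ± 3.49 and 26.2 ± 2.24 FPKM (SD, n = 3 each; log2 difference −0.03 with a 95% interval of −0.32 to 0.26).

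Gpx1 showed another order of means, with QDG between Model and WT, although the QDG and Model libraries overlapped. It averaged 1828 ± 232 FPKM in QDG and 1347 ± 64.0 FPKM in WT (SD, n = 3 each), a log2 difference of 0.43 that did not pass (limma, adjusted p = 0.250) although all QDG libraries lay above all WT libraries. Nqo1 averaged 101 ± 14.4 FPKM in QDG and 148 ± 27.9 FPKM in WT (SD, n = 3 each) without overlap, a log2 difference of −0.55 (limma, adjusted p = 0.323). Sod2 stood at 42.3, 37.6 and 39.2 FPKM in QDG, above every WT library (log2 difference 0.21, limma, adjusted p = 0.326). The other 6 genes overlapped between QDG and WT in FPKM. By share of summed FPKM, every QDG library lay below every WT library for Gpx4 and Cat.

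**Figure D4:**
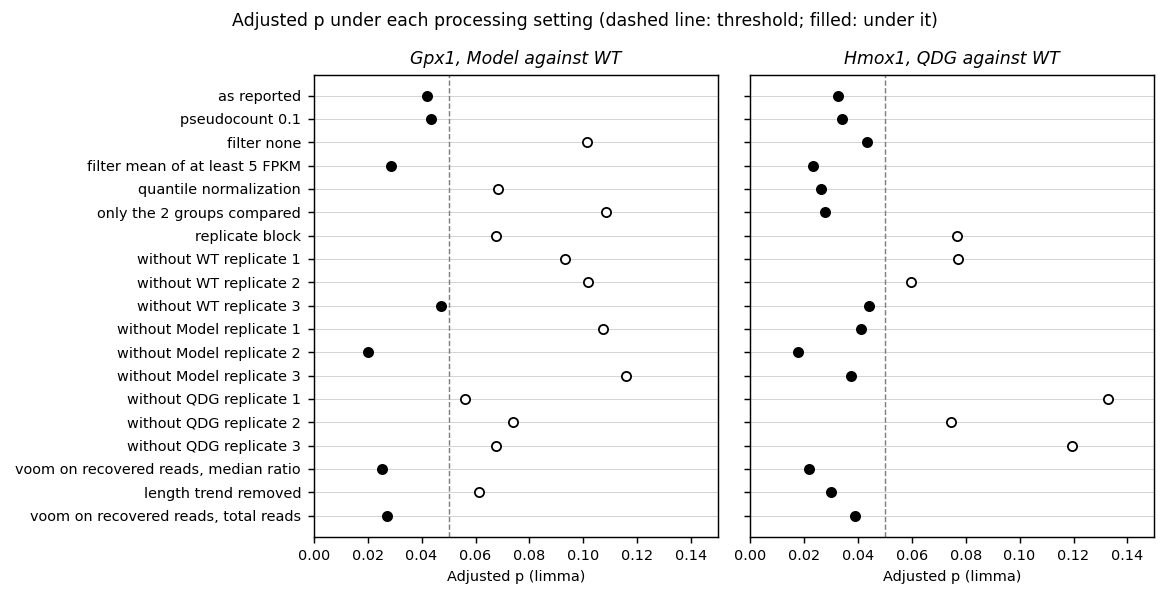
Adjusted p of Gpx1 in Model against WT and of Hmox1 in QDG against WT under each processing setting, with a dashed line at 0.05 and filled points under it. Gpx1 passed under 6 of 18 alternatives and Hmox1 under 12 of 18.

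The spread within groups differed by gene. Among the Model libraries, Model 3 was highest, Model 1 intermediate and Model 2 lowest for 6 of the 10 genes (Gpx1, Gpx3, Sod1, Sod2, Sod3 and Nox4), an order shown by 24.2% of all tested features. Cat and Nqo1 ran exactly the other way. By share of summed FPKM, Gpx1, Gpx3, Sod1 and Nox4 kept the order of Model 3, Model 1 and Model 2, but Sod2 and Sod3 did not. The Sod3 share was 0.0332% in Model 1, 0.0323% in Model 2 and 0.0301% in Model 3. The part of a library-wide difference in this order was not tested. The coefficient of variation in Model was 52.9% for Nqo1, 35.7% for Nox4 and 25.6% for Gpx1, and 6.76% for Sod3. In QDG no gene exceeded 14.3% (Nqo1), and Cat varied by 1.29%. In WT it was 33.7% for Nox4 and 21.5% for Gpx4, against 3.98% for Gpx3.

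Over the 9 libraries the features most like Gpx3 in log2(FPKM + 1) were ENSMUSG00000031812, with a Pearson r of 0.94 and a mean of 25.1 FPKM, and ENSMUSG00000057895, with an r of 0.92 and a mean of 1.20 FPKM. The nearest of the other 9 genes was Sod1, with an r of 0.61, ranking 744 among tested features, and Nqo1 was the farthest at −0.45. These values describe likeness across libraries that share a depth range and a scaling, and they are picked from all tested features.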

How the data were processed

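Kidney RNA was sequenced in 9 samples (3 QDG, 3 Model, 3 WT, grouped by their treatment labels). Ribosomal RNA was depleted and libraries were made with an NEB Next Ultra RNA kit, per the labels' protocols. Each sample's file, as the authors deposited it, lists features with 1 value each. The unit was taken to be FPKM because the deposited values moved in steps of whole reads divided by length. Limma is named in the submitters' processing notes. Aligner, counter, build and annotation: not given in the sources used here.

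Whole reads and lengths were recovered for all 17862 features (tolerance 0.0001 read or 2e-07 of the value, and 0.01 read for the most abundant). Of the lengths, 99.9% were whole within 0.05 base. The scaling total had been set to the largest that made lengths whole, so this share is not an independent check. The steps do not tell reads from read pairs. Depth was 26746754 to 29421912 recovered reads per library. No listed value was 0.

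Features averaging at least 1 FPKM were fitted with limma 3.58.1 (R 4.3.3) on log2(FPKM + 1) with an intensity trend, all 9 samples in 1 model, two-sided, with Benjamini-Hochberg adjustment over 12187 features per comparison and a threshold of 0.05. The pseudocount understates changes of low genes. Alternatives were a pseudocount of 0.1, no filter, a filter at 5 FPKM, quantile normalization, only the 2 groups compared, a replicate block, each sample left out, voom on recovered reads with median-ratio or total-read scaling, and removal of the length trend (lowess, span 0.2). The procedure was tested on simulated data.

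All 10 genes are named. The 2 features most like Gpx3 are named by a rule of highest Pearson r. Lists of other glutathione, thioredoxin, NRF2, selenoprotein and oxidant genes and of cell type markers, written as symbols, matched no identifier and were not analysed here. The members and lists were chosen with earlier results of these data known.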

Additional observations from a re-analysis of the deposited data

How the results depend on the processing

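Every gene and comparison was recomputed under 18 alternatives, of which voom with total-read scaling was chosen after seeing the data. The number of the 10 genes called in Model against WT was 1, and 0 with no filter, with quantile normalization, with only the 2 groups compared, with the replicate block and with the length trend removed, and 0 to 1 with 1 library left out. In QDG against WT it was 1, 0 with the replicate block, and 0 to 1 with 1 library left out. In QDG against Model it was 0 throughout. The cause of the losses was not tested.

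Replicate numbers were not shown to pair the samples, since the correlation of deviations from group means exceeded 0.1 in 1 of 9 same-numbered pairs (−0.33 to 0.14). The replicate block cannot move a fitted change in this balanced layout, only its error. With it, the calls of Gpx1 in Model against WT (limma, adjusted p = 0.0675) and of Hmox1 in QDG against WT (limma, adjusted p = 0.0767) were lost. The block changed no other call.

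Of the 30 combinations of gene and comparison, 19 kept their direction under every alternative. The other 11 had no call and turned in direction under some. In Model against WT, Gpx3 turned to −0.15 without the length trend and −0.014 with voom on total reads, and Gpx4 to −0.14 with quantile normalization and −0.10 without the length trend. In QDG against Model, Gpx3 turned to 0.11 without the length trend, and in QDG against WT to 0.035 with quantile normalization. Quantile normalization sets a value by its rank alone. Gpx3 ranked 4 in every QDG and Model library and 5, 4 and 3 in WT, so that setting says little on its direction. With 1 library left out, log2 changes in Model against WT ran from −0.083 to 0.13 for Gpx3, −0.065 to 0.24 for Gpx4, −0.10 to 0.039 for Sod3, −0.50 to 0.17 for Nqo1 and −0.10 to 0.086 for Hmox1. In QDG against Model they ran from −0.16 to 0.053 for Gpx3 and −0.078 to 0.088 for Cat. In QDG against WT they ran from −0.083 to 0.028 for Gpx3, −0.20 to 0.018 for Sod1, −0.010 to 0.13 for Sod3 and −0.048 to 0.35 for Nox4. The lowest member value rested on 731 reads, and 3 samples per group limit the precision.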
